A study of Rattus norvegicus with 4 samples.

Results

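Chemokines are small secreted proteins that bind receptors on leukocytes and set where those cells move and settle. The 10 chemokine genes described here were chosen by symbol: Ccl2, Ccl5, Ccl19, Ccl21, Cxcl1, Cxcl9, Cxcl10, Cxcl12, Cxcl13 and Cxcl16. All 10 were found among the 32402 genes of each section, each as 1 row. Spatial gene expression had been measured with the 10x Visium assay on frozen kidney sections of Sprague-Dawley rats, cut at 10 µm. There were 4 sections, 1 a group, and the age and sex of the rats are not given in the sources used here.

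The PAN_LS-FMD section came from a rat given puromycin aminonucleoside (PAN), a toxin of podocytes, and then 6 cycles of a fasting-mimicking diet low in salts (LS-FMD). The PAN section came from a rat with the same injection that ate freely. Both kidneys were collected when 5 months had passed since the injection and 6 weeks since the treatment. The healthy_LS-FMD section came from a rat that had not been injected, had 1 diet cycle and was then refed for 72 h. The healthy section had no treatment. With 1 section a group there is no measure of the spread between animals, so no p-value is given, and every interval below is a 95% counting interval that covers only the sampling of molecules within a section.

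Between 2187 and 2866 spots a section were used, with 24924170 to 58568499 unique molecular identifiers (UMIs, each standing for 1 captured RNA molecule) and medians of 8482 to 19531 UMIs a spot. The PAN section had the lowest total and the lowest median, and the healthy section the highest of both. A spot is a small area of tissue that can hold several cells. Levels are UMIs of a gene per 1000000 UMIs of its section (CPM), and 3 UMIs, the number that a count of 0 allows, came to 0.0512 to 0.120 CPM. Per the file headers the healthy matrix was made with Space Ranger 2.0.1 and the other matrices with 1.2.1, so in the comparisons with the healthy section the version and the group cannot be told apart. Spots labelled cortical by marker lists made up 33.3% to 44.6% of a section and medullary spots 10.5% to 31.6%. Between 1648 and 2275 spot barcodes were shared by each pair of sections; a spot barcode names a position on the slide.

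As background, known mainly from human and mouse, Ccl19 and Ccl21 are the ligands of Ccr7 and guide dendritic cells and T cells into lymphatics and lymphoid tissue, Cxcl13 draws B cells through Cxcr5 and organises follicles, and Cxcl12 holds Cxcr4-bearing cells in their niches. Ccl2 recruits monocytes through Ccr2, Ccl5 is made by activated T and natural killer (NK) cells and attracts further leukocytes, and Cxcl1 draws neutrophils through Cxcr2. Cxcl9 and Cxcl10 are induced by interferons and attract Cxcr3-bearing T cells, and Cxcl16 is a membrane-anchored ligand of Cxcr6. In injured kidneys such genes are used as marks of leukocyte entry and of lymphoid aggregates.

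The promoters of 4 members are shown because these genes form the pairs on which the results below turn: Ccl19 and Ccl21, whose gap between PAN and healthy was the largest among the members with over 200 UMIs in each section, and Cxcl9 and Cxcl10, which shared spots. They come from RefSeq (build GRCr8), each covering 250 bases before to 50 bases after the annotated start, 5′ to 3′. Ccl19 lies at chr5:61761115-61761414 and Ccl21 at chr5:61777466-61777765, both on the minus strand. Cxcl9 lies at chr14:16006916-16007215 and Cxcl10 at chr14:15988816-15989115, both on the plus strand. Capitals mark matches to the searched motifs.
Ccl19: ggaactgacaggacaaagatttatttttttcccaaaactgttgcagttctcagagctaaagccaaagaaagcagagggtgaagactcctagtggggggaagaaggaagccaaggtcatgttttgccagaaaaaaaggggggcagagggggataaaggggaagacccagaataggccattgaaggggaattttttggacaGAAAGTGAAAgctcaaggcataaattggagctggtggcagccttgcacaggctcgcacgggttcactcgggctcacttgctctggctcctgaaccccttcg
Ccl21: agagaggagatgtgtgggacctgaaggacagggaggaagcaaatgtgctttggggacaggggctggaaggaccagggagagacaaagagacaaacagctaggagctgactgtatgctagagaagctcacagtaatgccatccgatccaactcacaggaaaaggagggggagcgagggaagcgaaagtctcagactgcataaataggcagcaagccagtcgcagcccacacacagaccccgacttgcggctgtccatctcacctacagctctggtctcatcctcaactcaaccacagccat
Cxcl9: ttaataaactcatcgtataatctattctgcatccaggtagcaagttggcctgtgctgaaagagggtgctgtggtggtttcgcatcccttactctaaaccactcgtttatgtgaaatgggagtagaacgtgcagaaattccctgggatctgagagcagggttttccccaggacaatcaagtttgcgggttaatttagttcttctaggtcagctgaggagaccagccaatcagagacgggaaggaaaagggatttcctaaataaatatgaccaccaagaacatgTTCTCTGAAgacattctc
Cxcl10: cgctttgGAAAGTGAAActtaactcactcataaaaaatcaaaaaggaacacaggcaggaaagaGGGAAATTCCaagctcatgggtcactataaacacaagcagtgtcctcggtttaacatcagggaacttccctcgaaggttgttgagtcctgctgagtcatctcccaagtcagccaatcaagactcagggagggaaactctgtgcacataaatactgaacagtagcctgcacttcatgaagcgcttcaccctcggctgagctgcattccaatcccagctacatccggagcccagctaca

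A RefSeq promoter was matched for 8 of the 10 members. Both strands were searched for the NF-kB consensus, for the core of the interferon-stimulated response element (ISRE), which is GAAA, any 2 bases and GAAA, and for the gamma-activated sequence (GAS), TTCNNNGAA. Among all 33469 promoters of the same length, 4.18% held the NF-kB consensus, 3.92% the ISRE core and 8.87% the GAS. Ccl19 held 1 ISRE core, GAAAGTGAAA, starting at base 200 of the window. Cxcl10 held the same ISRE letters at base 8 and an NF-kB match, GGGAAATTCC, at base 64. Cxcl9 held a GAS, TTCTCTGAA, at base 283, just after the annotated start. Cxcl1 held an NF-kB match, GGGAATTTCC, at base 167, and 1 on the other strand that overlaps it. Ccl21, Cxcl12, Cxcl13 and Cxcl16 held none of these letters in this window. A match is a string of letters, not a shown binding site.

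In the PAN section all 10 chemokines were higher than in the healthy section, and in the PAN_LS-FMD section 9 of the 10 were lower than in the PAN section. The largest folds of PAN over healthy were 38.5 for Ccl21, 12.2 for Cxcl13 and 10.0 for Ccl19. Cxcl13 stood apart from the rest in the PAN_LS-FMD section, where it stayed 7.26-fold above healthy. A gene is called higher or lower here when it had at least 20 UMIs over both sections, differed by at least 1.5-fold and had a counting interval of the fold that excludes 1. In a whole section, fewer cells of a type and less RNA per cell cannot be told apart.

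**Figure D1:**
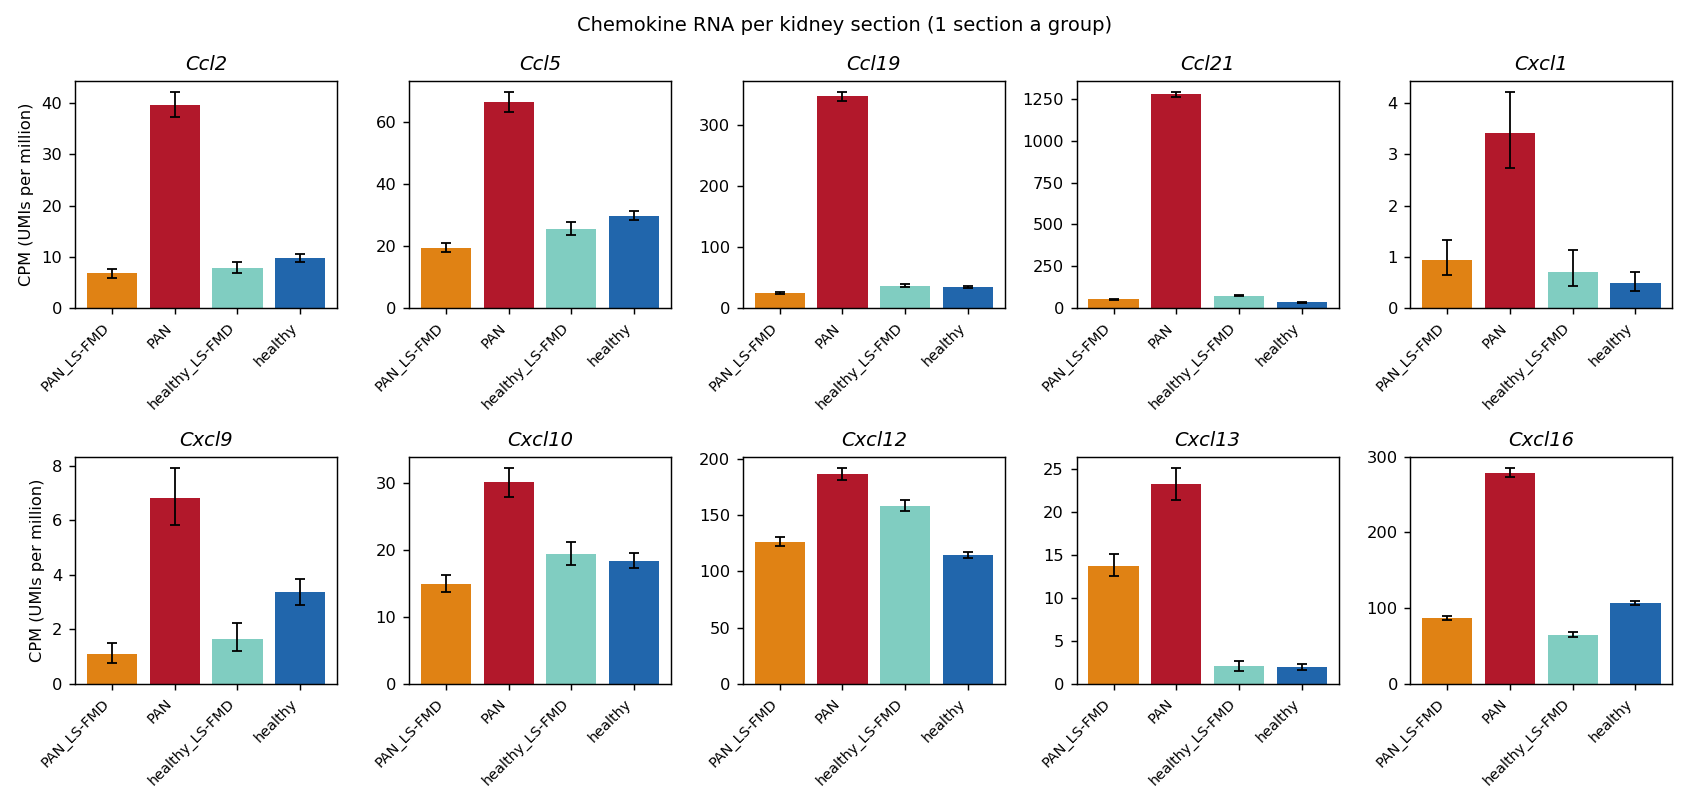
Level of each chemokine gene in CPM (linear axes from 0, a separate scale for each gene) in the 4 sections, 1 section a group; bars are levels and error bars 95% Poisson intervals for counting. PAN is the highest bar for each of the 10 genes, and Cxcl13 is the gene whose PAN_LS-FMD bar (13.8 CPM) stands far above both healthy bars (2.01 and 1.90 CPM).

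For PAN against healthy, 10 of 10 members were called higher and 0 lower, where 44.3% of the 13208 measured genes were called higher and 9.85% lower. The median log2 fold was 1.70 over the members and 0.51 over all measured genes, so the general shift between these sections was upward. With median-of-ratios scaling, which moved the all-gene median to 0.06, 7 members were called higher beside 24.3% of all genes higher and 19.7% lower. Under that scaling Cxcl9 (1.49-fold), Cxcl10 (1.19-fold) and Cxcl12 (1.19-fold) were no longer called.

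For PAN_LS-FMD against PAN, 9 members were called lower and 0 higher, where 35.5% of 12850 measured genes were called lower and 9.67% higher. The median log2 fold was -1.81 over the members and -0.37 over all measured genes. Cxcl12 was the member not called, at 127 CPM in PAN_LS-FMD and 187 CPM in PAN. With median-of-ratios scaling, 8 were called lower beside 23.6% of all genes lower and 16.7% higher, and Cxcl13 (0.74-fold) was no longer called. The comparison shares its PAN section with the one above, so the directions of both are tied to that section's values.

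For PAN_LS-FMD against healthy, 3 members were called higher (Ccl21, Cxcl1 and Cxcl13), where 6.8% of 12977 measured genes were, and 2 were called lower (Ccl5 and Cxcl9), where 4.53% were. The other 5 were called in neither direction. For healthy_LS-FMD against healthy, 1 member was called higher (Ccl21), where 27.1% of 12967 measured genes were, and 2 lower (Cxcl9 and Cxcl16), where 5.27% were. The members' median log2 folds in these comparisons were -0.30 and 0.07, beside 0.11 and 0.33 over all measured genes.

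**Figure D2:**
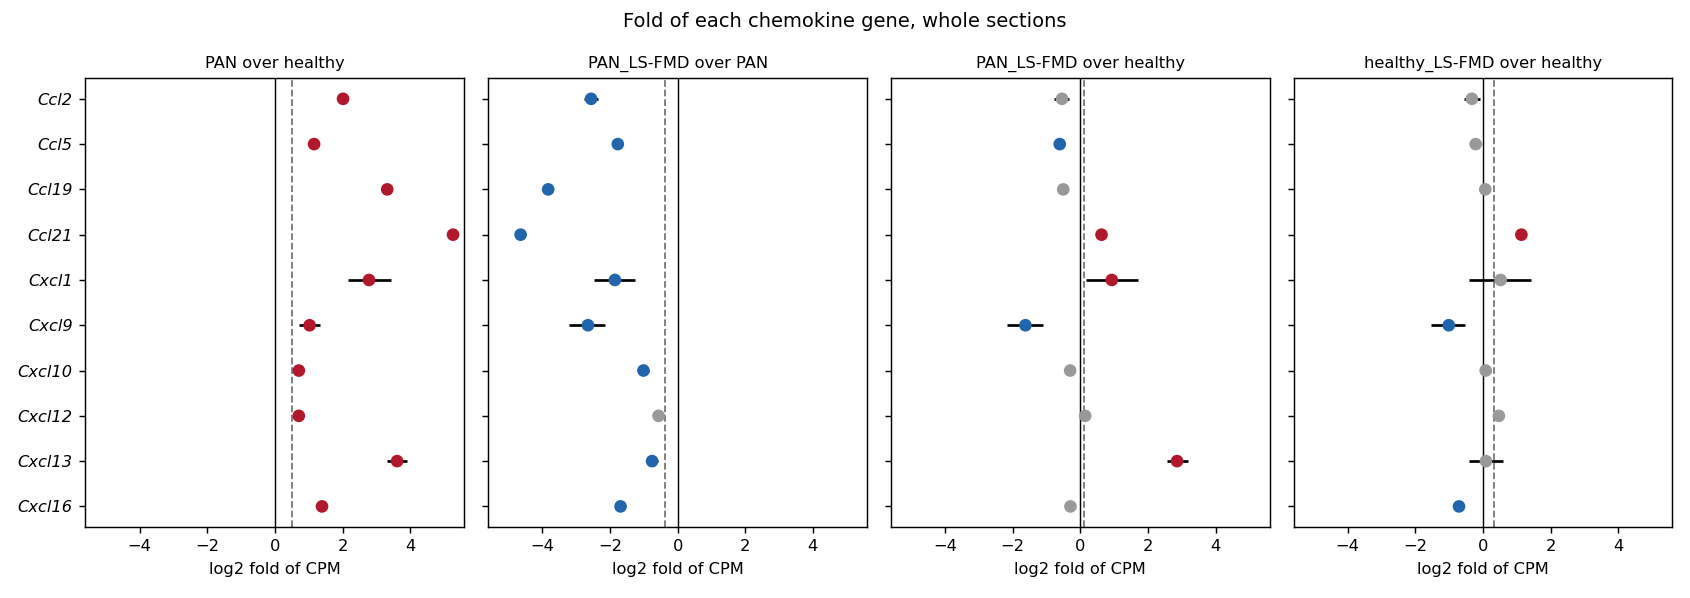
Log2 fold of CPM for each chemokine gene in the 4 comparisons, named first group over second; points are folds, black lines 95% counting intervals (hidden by the point where narrow), red called higher, blue called lower, grey neither, and the dashed line the median of all measured genes. Ccl21 lies farthest from 0 in PAN over healthy and in PAN_LS-FMD over PAN, and Cxcl13 farthest right in PAN_LS-FMD over healthy.

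Ccl21 had 1792 UMIs (51.3 CPM) in PAN_LS-FMD, 31849 UMIs (1278 CPM) in PAN, 1845 UMIs (72.8 CPM) in healthy_LS-FMD and 1943 UMIs (33.2 CPM) in healthy. PAN was far above the rest, and no neighbouring intervals in the order PAN, healthy_LS-FMD, PAN_LS-FMD, healthy overlapped. The level in PAN was 38.5-fold that in healthy (interval 36.8 to 40.3), and in PAN_LS-FMD it was 24.9-fold lower than in PAN (23.8 to 26.2). It was 1.54-fold higher in PAN_LS-FMD than in healthy (1.45 to 1.65), but that call was lost with median-of-ratios scaling (1.40-fold), and against healthy_LS-FMD the level was 0.70-fold. In healthy_LS-FMD it was 2.20-fold higher than in healthy (2.06 to 2.34).

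Ccl19, the other Ccr7 ligand and the neighbour of Ccl21 on chromosome 5, had 858 UMIs (24.5 CPM) in PAN_LS-FMD, 8670 UMIs (348 CPM) in PAN, 923 UMIs (36.4 CPM) in healthy_LS-FMD and 2038 UMIs (34.8 CPM) in healthy. Again PAN alone was high, while the intervals of healthy_LS-FMD and healthy overlapped. The level was 10.0-fold higher in PAN than in healthy (9.53 to 10.5) and 14.2-fold lower in PAN_LS-FMD than in PAN (13.2 to 15.2). Unlike Ccl21, it was not called in PAN_LS-FMD against healthy (0.71-fold, though 0.64-fold and called lower with median-of-ratios scaling) or in healthy_LS-FMD against healthy (1.05-fold).

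Both Ccr7 ligands were spread through the PAN section rather than held in a few spots. After thinning each spot to 4000 UMIs, so that depth was equal, 17.2% of spots in PAN_LS-FMD had a Ccl21 UMI, 93.7% in PAN, 16.9% in healthy_LS-FMD and 9.22% in healthy. For Ccl19 the thinned shares were 9.89% in PAN_LS-FMD, 63.9% in PAN, 14.1% in healthy_LS-FMD and 12.3% in healthy. The unthinned shares for Ccl21 were 43.1% in PAN_LS-FMD, 98.4% in PAN, 28.4% in healthy_LS-FMD and 29.6% in healthy. Even in the PAN region where Ccl21 was lowest, led by the proximal tubule S3 genes Slc7a12, Slc7a13 and Kap, 97.6% of 168 spots held a UMI of it, at a median of 12106 UMIs a spot. Thinning left out 13 spots in PAN_LS-FMD, 246 in PAN, 150 in healthy_LS-FMD and 4 in healthy.

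Within each section, spots were clustered into 13 to 16 regions with the members left out of the clustering genes. In PAN both Ccr7 ligands were highest in the same region of 67 spots, led by the smooth muscle genes Actg2, Myh11, Cnn1 and Acta2, where Ccl21 reached 3002 CPM and Ccl19 1422 CPM. They were lowest in the S3 region named above, at 499 CPM and 144 CPM. The highest Ccl21 region of the other sections was at 119 CPM in PAN_LS-FMD, 432 CPM in healthy_LS-FMD and 153 CPM in healthy. The interval of the lowest PAN region (470 to 530) lay above those of PAN_LS-FMD and healthy and overlapped that of healthy_LS-FMD (392 to 475). The lowest PAN value of Ccl19 lay beside its highest value elsewhere, 142 CPM in healthy_LS-FMD, with overlapping intervals.

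Outside PAN the top regions again carried smooth muscle genes in part. Like the top region of PAN, each of them was labelled blood-rich, after the red blood cell marker list. The healthy_LS-FMD region that held the highest Ccl21 and Ccl19 (101 spots) was led by Alas2, Myh11, Acta2 and Eln. Of the section's Ccl21 UMIs, 23.3% lay in it with 3.92% of all UMIs. Its Ccl19 interval (120 to 167) overlapped that of a medullary region at 125 CPM (93.6 to 163). In healthy, Ccl21 was highest in 78 spots led by Cnn1, Lmod1 and Actg2. Ccl19 was highest there, at 110 CPM, in 169 spots led by Cdc25b, Lgals5 and Ahsp. These regions of healthy had overlapping intervals for Ccl21 (132 to 176 and 111 to 135) and for Ccl19 (78.8 to 114 and 99.1 to 122). In PAN_LS-FMD both were highest in 141 spots led by Klk1c3, Klk1c9 and Calb1, genes of the distal nephron, where Ccl19 was at 47.2 CPM. For both genes the interval overlapped that of a cortical region of 116 spots.

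**Figure D3:**
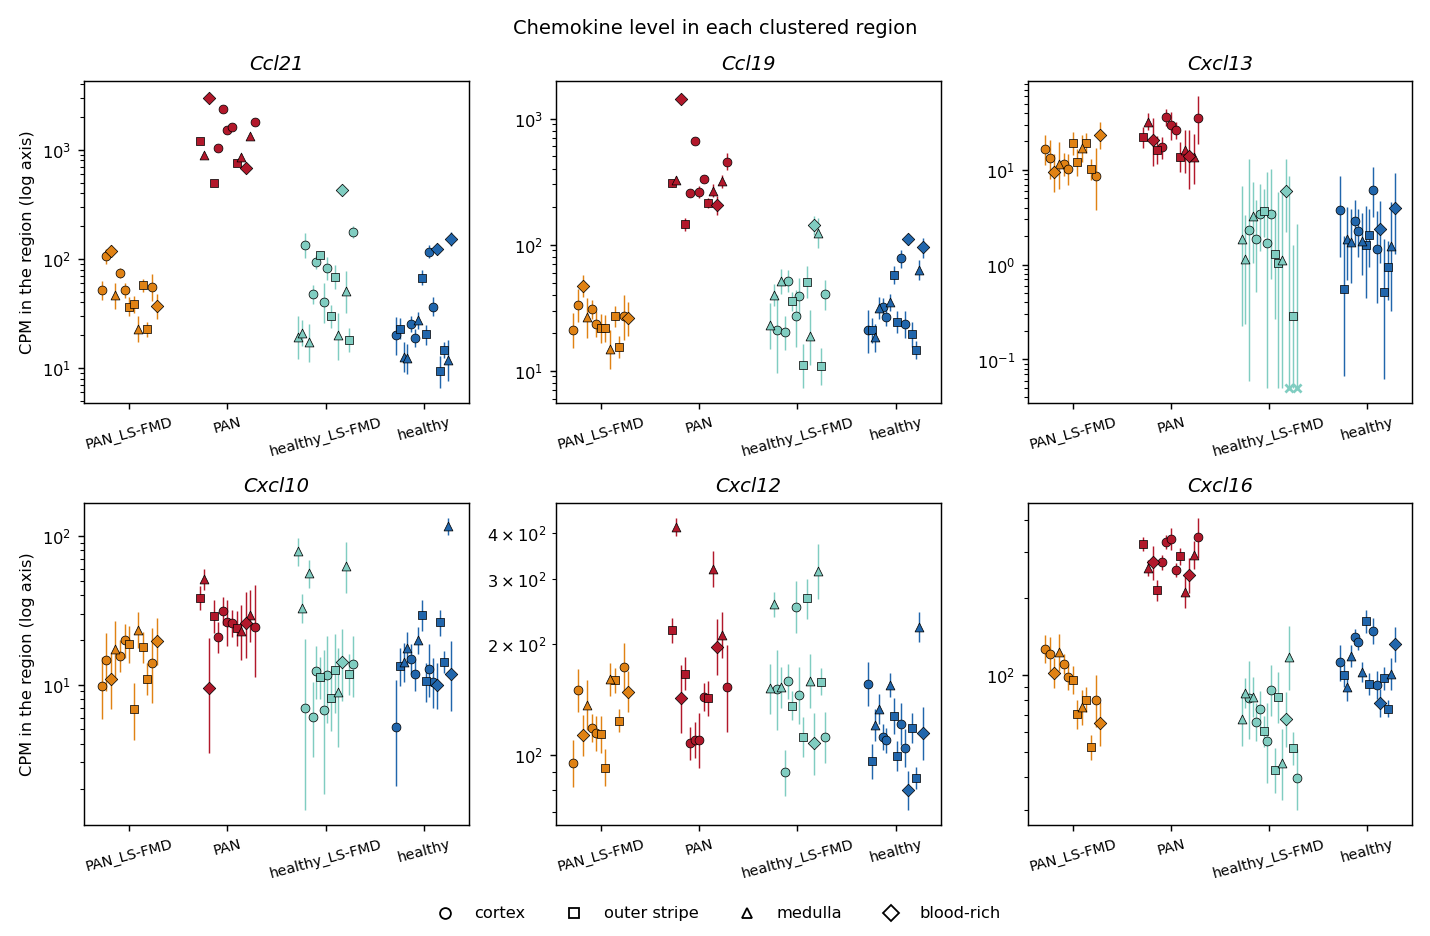
CPM of 6 chemokine genes in each clustered region (log axes), grouped by section; each symbol is 1 region, its shape gives the label from marker lists, vertical lines are 95% Poisson intervals and crosses at the bottom are regions with no UMI. For Ccl21 the PAN regions are at 499 CPM or more and the regions of the other sections at 432 CPM or less, with overlapping intervals between these 2 values; the highest Cxcl12 region of PAN (417 CPM) is a medullary one (triangle).

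The spots that hold a chemokine were described by lists of cell type markers. For each list, its CPM averaged over spots with the chemokine's UMIs as weights was divided by its CPM over the section, so that 1 means no enrichment; this UMI-weighted ratio has no interval, and it describes spots, not cells. Ccl21 UMIs in healthy lay where the plasma cell list was 7.07-fold, the B cell list 4.95-fold, the lymphatic endothelium list 3.31-fold and the smooth muscle list 2.30-fold the section's level. In healthy_LS-FMD these ratios were 5.16, 4.69, 2.93 and 2.79. In PAN_LS-FMD they were 2.72, 1.64, 1.93 and 1.55. In PAN, where nearly every spot held Ccl21, the plasma cell ratio was 1.31, the B cell ratio 1.30 and the lymphatic endothelium ratio 1.46. Around Ccl19 in PAN the red blood cell list had the highest ratio (2.03), before the smooth muscle list (1.56).

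Single genes were picked for a high ratio in these same spots. Igkc belongs to the plasma cell list and Myh11 to the smooth muscle list, so they add no separate support to the list ratios. In healthy the spots with Ccl21, compared with those without it, held more Igh-6 (15.4-fold) and Igkc (4.25-fold), which encode immunoglobulin chains, more of the smooth muscle myosin Myh11 (2.62-fold) and more Ccl19 (2.17-fold). In healthy_LS-FMD the spots with Ccl21 held more Igkc (3.29-fold) and Myh11 (2.72-fold). In PAN_LS-FMD they held more Igkc (2.20-fold) and Myh11 (2.06-fold).

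Spots with Ccl19 held more Ccl21 in every section. Spots with Ccl19 had Ccl21 at 70.2 CPM, and spots without it at 42.6 CPM, in PAN_LS-FMD, a ratio of 1.65 (1.498 to 1.81). The ratio was 1.69 in PAN (1.63 to 1.76), 3.69 in healthy_LS-FMD (3.36 to 4.05) and 3.0003 in healthy (2.73 to 3.30). Each of these 4 intervals lies above 1.

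The B cell, plasma cell, T and NK cell, macrophage, lymphatic endothelium, smooth muscle, fibroblast and injured tubule lists all had their highest sum in PAN, as the Ccr7 ligands did. The B cell list summed to 106 CPM in PAN_LS-FMD, 1689 CPM in PAN, 95.9 CPM in healthy_LS-FMD and 29.4 CPM in healthy. Of its 8 genes, Pax5 was at 0 in all 4 sections and Ms4a1 was at 0 in all but PAN. In PAN_LS-FMD the B cell sum was 3.62-fold that of healthy. Yet of 5 measured genes 1 was called higher and 3 lower (6.8% and 4.53% of all measured genes). In healthy_LS-FMD against healthy 1 of 5 was called higher and 0 lower (27.1% and 5.27% of all measured genes). The lymphatic endothelium list, 6 genes, summed to 15.2, 60.02, 16.5 and 12.4 CPM in the same order, with Reln at 0 in healthy_LS-FMD. The smooth muscle list, 7 genes with none at 0, summed to 169, 785, 255 and 199 CPM in that order. The fibroblast and matrix list, 8 genes with none at 0, summed to 1047, 7259, 829 and 1152 CPM in that order. The part of these cell types in the chemokine levels was not tested.

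**Figure D4:**
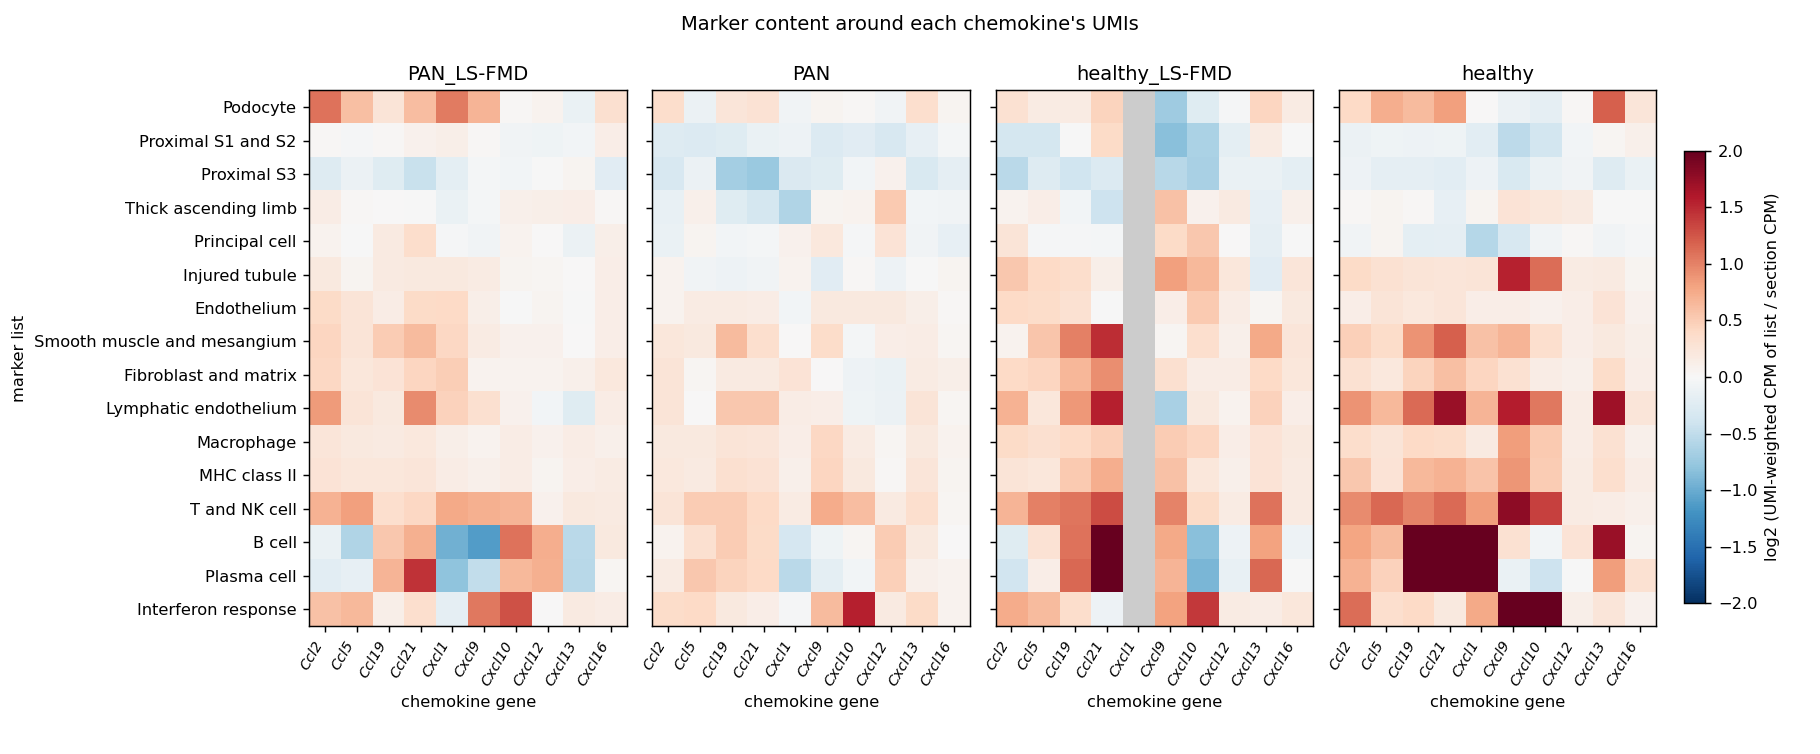
UMI-weighted ratio of 16 marker lists (rows) around each chemokine's UMIs (columns) in the 4 sections, as log2 of the list's weighted CPM over its section CPM, with colours that saturate at 4-fold either way and grey where fewer than 20 spots held the gene. Ccl19 and Ccl21 share dark B cell and plasma cell cells in healthy (4.20 to 7.07), Cxcl10 has the interferon response list in every section (2.41 to 5.41), and the Cxcl16 column is pale (1.25 or less among lists with at least 200 UMIs).

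Cxcl13, the B cell attractant, had 481 UMIs (13.8 CPM) in PAN_LS-FMD, 578 UMIs (23.2 CPM) in PAN, 51 UMIs (2.01 CPM) in healthy_LS-FMD and 111 UMIs (1.90 CPM) in healthy. Both PAN-injected kidneys were high and both uninjected kidneys low, and the intervals of the uninjected pair overlapped. It was 12.2-fold higher in PAN than in healthy (9.97 to 15.1) and 7.26-fold higher in PAN_LS-FMD than in healthy (5.89 to 9.005). In PAN_LS-FMD it was 1.69-fold lower than in PAN (1.49 to 1.91), which was called but was the smallest fold among the 9 members called there. Over cortical spots only, PAN_LS-FMD was 4.18-fold above healthy.

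Cxcl13 was found in every region of the injected kidneys, at unequal levels. Its regions ran from 8.64 to 23.5 CPM in PAN_LS-FMD and from 13.6 to 35.8 CPM in PAN, and no spot held more than 7 UMIs of it. The highest UMI-weighted ratio around it was 1.23 in PAN_LS-FMD, for the dendritic cell list, and 1.30 in PAN, for the interferon response list. The B cell ratio was 0.69 in PAN_LS-FMD and 1.15 in PAN. In healthy, by contrast, the B cell ratio was 3.31, the lymphatic endothelium ratio 3.25 and the podocyte ratio 2.29. Spots with Cxcl13 had Ccl21 at 41.5 CPM, against 53.7 CPM in those without it, in PAN_LS-FMD (ratio 0.77, 0.68 to 0.88). In PAN the ratio was 0.96 (0.93 to 0.98), in healthy_LS-FMD 4.24 (3.56 to 5.02) and in healthy 3.09 (2.66 to 3.56). Havcr1, the kidney injury molecule of proximal tubules, was 1.86-fold higher in the Cxcl13 spots of PAN_LS-FMD.

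Cxcl12, the ligand of Cxcr4 and of the scavenger Ackr3, had 4427 UMIs (127 CPM) in PAN_LS-FMD, 4661 UMIs (187 CPM) in PAN, 4014 UMIs (158 CPM) in healthy_LS-FMD and 6711 UMIs (115 CPM) in healthy. No neighbouring intervals overlapped, but the whole range was narrow beside those of Ccl21 or Cxcl13. It was 1.63-fold higher in PAN than in healthy (1.57 to 1.69). Over cortical spots only, that fold was 1.06 (0.99 to 1.13) and was not called. With healthy_LS-FMD in place of healthy, the whole-section fold of PAN was 1.18 (1.13 to 1.23) and was not called either. In the medulla Cxcl12 was at 359 CPM in PAN and 151 CPM in healthy, and in the outer stripe at 179 CPM in PAN and 99.7 CPM in healthy. In the cortex it was at 121 CPM in PAN and 114 CPM in healthy, with overlapping intervals. The regions labelled medullary were at 137 and 160 CPM in PAN_LS-FMD, at 212 to 417 CPM in PAN and at 152 to 316 CPM in healthy_LS-FMD. A PAN_LS-FMD region labelled outer stripe, with the thick ascending limb list genes Slc12a1 and Umod among its leading genes, was at 159 CPM.

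The top Cxcl12 region of PAN, at 417 CPM, was a medullary one of 365 spots led by Prom2, Tmem207 and Slc4a11, and it held 26.3% of the section's Cxcl12 UMIs with 11.8% of all UMIs. Spots with Cxcl12 in PAN held more Tmem207 (2.69-fold) and more Kcnj1, the potassium channel of the thick ascending limb (2.20-fold). The thick ascending limb list had a UMI-weighted ratio of 1.09 in PAN_LS-FMD, 1.44 in PAN, 1.13 in healthy_LS-FMD and 1.14 in healthy. The top regions of healthy_LS-FMD (316 CPM) and healthy (223 CPM) were medullary too. In healthy_LS-FMD the interval (265 to 374) overlapped that of an outer stripe region at 266 CPM (234 to 301). The top region of PAN_LS-FMD (173 CPM, 147 to 202) was a cortical one led by the distal convoluted tubule gene Slc12a3. Its interval overlapped those of a medullary region at 160 CPM (144 to 178) and a region at 159 CPM (147 to 172). The latter was labelled outer stripe, although its leading genes included Tmem207 and the thick ascending limb list genes Slc12a1 and Umod.

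Ccl2, the monocyte attractant, had 236 UMIs (6.75 CPM) in PAN_LS-FMD, 989 UMIs (39.7 CPM) in PAN, 198 UMIs (7.82 CPM) in healthy_LS-FMD and 575 UMIs (9.82 CPM) in healthy. PAN alone was high, and the intervals of PAN_LS-FMD and healthy_LS-FMD overlapped. It was 4.04-fold higher in PAN than in healthy (3.64 to 4.49) and 5.88-fold lower in PAN_LS-FMD than in PAN (5.10 to 6.81). In healthy_LS-FMD against healthy it was 0.80-fold and not called, but it was called lower over cortical spots (0.54-fold) and with median-of-ratios scaling (0.63-fold). With that scaling it was also called lower in PAN_LS-FMD against healthy (0.62-fold).

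Regions led by podocyte genes held the highest Ccl2 in 3 of the 4 sections. These were 116 spots at 18.7 CPM in PAN_LS-FMD, 38 spots at 73.6 CPM in PAN and 125 spots at 19.9 CPM in healthy, each with Nphs1 and Wt1 among its leading genes. In each of these sections the interval overlapped those of other regions. Among the overlapping regions were cortical and medullary ones in PAN_LS-FMD, a cortical one at 71.2 CPM in PAN and an outer stripe one at 17.9 CPM in healthy. In healthy_LS-FMD the top region was medullary, at 27.1 CPM, and its interval overlapped those of other medullary regions and of cortical ones. The podocyte list had a UMI-weighted ratio of 2.12 around Ccl2 in PAN_LS-FMD and 1.27 in PAN. The podocyte-led regions were not high in Ccl2 alone. Ccl5 was also highest in those of PAN_LS-FMD (37.4 CPM) and healthy (79.7 CPM), with overlapping intervals, but not in those of PAN (43.6 CPM) or healthy_LS-FMD (25.6 CPM). Cxcl1 was highest in that of PAN_LS-FMD, Cxcl16 in that of PAN and Cxcl13 in that of healthy, each with overlapping intervals.

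Ccl5, a product of T and NK cells, had 681 UMIs (19.5 CPM) in PAN_LS-FMD, 1652 UMIs (66.3 CPM) in PAN, 647 UMIs (25.5 CPM) in healthy_LS-FMD and 1738 UMIs (29.7 CPM) in healthy. All 4 intervals were apart, with PAN highest and PAN_LS-FMD lowest. It was 2.23-fold higher in PAN than in healthy (2.09 to 2.39) and 3.40-fold lower in PAN_LS-FMD than in PAN (3.11 to 3.73). In PAN_LS-FMD it was 1.52-fold lower than in healthy (1.39 to 1.67), a call just past the threshold that was lost over cortical spots (0.68-fold) and against the healthy_LS-FMD section (0.76-fold). In healthy_LS-FMD against healthy it was 0.86-fold and not called, but over cortical spots 0.48-fold and called lower.

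The T and NK cell list had the highest ratio around Ccl5 in both uninjected sections, and in PAN_LS-FMD it came after the neutrophil list (2.37), which had 137 UMIs there. Its UMI-weighted ratio was 1.76 in PAN_LS-FMD, 1.42 in PAN, 2.01 in healthy_LS-FMD and 2.23 in healthy. In healthy the spots with Ccl5 held more Nkg7 (1.89-fold), a gene of cytotoxic cells, and more Cd3e (1.70-fold), a CD3 subunit of the T cell receptor complex. In PAN they held more Ccl4 (1.49-fold), another chemokine of T and NK cells, and more Gzmk (1.41-fold), a granzyme gene. The T and NK cell list of 14 genes summed to 46.8 CPM in PAN_LS-FMD, 218 CPM in PAN, 47.2 CPM in healthy_LS-FMD and 38.2 CPM in healthy, with Gzmb at 0 in all 4 and Cd4 at 0 in healthy_LS-FMD; its part in the Ccl5 level was not tested.

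Cxcl9 and Cxcl10 share the receptor Cxcr3. Cxcl10 had 522 UMIs (14.9 CPM) in PAN_LS-FMD, 749 UMIs (30.1 CPM) in PAN, 492 UMIs (19.4 CPM) in healthy_LS-FMD and 1077 UMIs (18.4 CPM) in healthy. PAN was highest, and the intervals of both uninjected sections overlapped. It was 1.63-fold higher in PAN than in healthy (1.49 to 1.80) and 2.01-fold lower in PAN_LS-FMD than in PAN (1.80 to 2.26).

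Cxcl9 was sparser, with 38 UMIs (1.09 CPM) in PAN_LS-FMD, 170 UMIs (6.82 CPM) in PAN, 42 UMIs (1.66 CPM) in healthy_LS-FMD and 196 UMIs (3.35 CPM) in healthy. PAN and healthy were each apart from the rest, while the intervals of the diet sections overlapped. It was 2.04-fold higher in PAN than in healthy (1.65 to 2.52) and 6.28-fold lower in PAN_LS-FMD than in PAN (4.39 to 9.17). In PAN_LS-FMD it was 3.08-fold lower than in healthy (2.17 to 4.48), and in healthy_LS-FMD it was 2.02-fold lower than in healthy (1.44 to 2.89). Against healthy_LS-FMD as the control, the PAN_LS-FMD level was 0.66-fold (0.41 to 1.04) and was not called. Over cortical spots the PAN fold over healthy was 3.28, the PAN_LS-FMD fold over healthy 0.51 and the healthy_LS-FMD fold over healthy 0.19. The last fold rests on few counts, as no cortical region of healthy_LS-FMD held more than 2 Cxcl9 UMIs.

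A single spot of the healthy section held a large share of both genes. It lay in a medullary region of 127 spots led by Cldn23 and Slc4a11, had 15494 UMIs in all, and carried 127 UMIs of Cxcl10 and 39 of Cxcl9, where the next spots had 22 and 9. That was 11.8% of the section's Cxcl10 and 19.9% of its Cxcl9. The same spot held 43 UMIs of Cxcl11, the other Cxcr3 ligand, 10 of Ccl2, 15 of the interferon-induced factor Irf1, 7 of Isg15 and 6 of Gbp2, but 1 of Cxcr3 and 0 of Cd3e. Without it the healthy section was at 16.2 CPM for Cxcl10 and 2.68 CPM for Cxcl9. Leaving out in each section the 1 spot, or the 10 spots, with most UMIs of a gene changed no call of any member in the 4 comparisons.

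**Figure D5:**
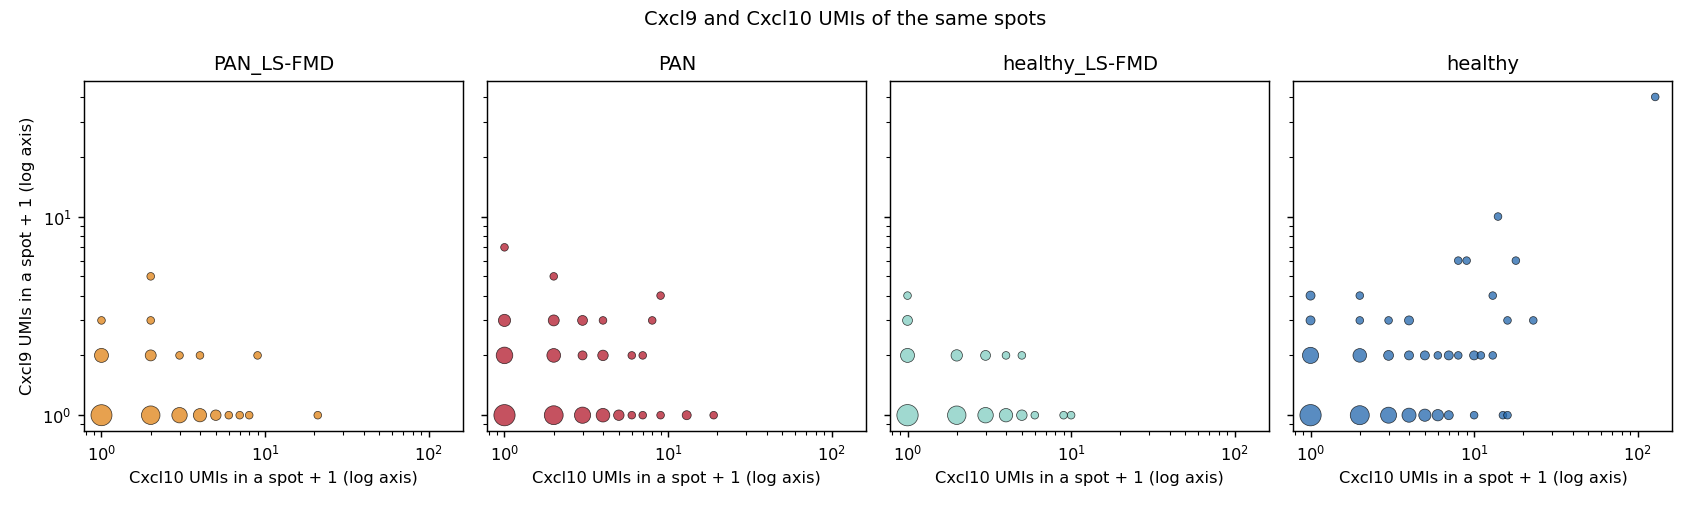
UMIs of Cxcl9 against UMIs of Cxcl10 in the same spot (both axes log, 1 added), 1 panel a section; a point's size grows with the number of spots at that pair of counts. In healthy 1 spot with 127 Cxcl10 and 39 Cxcl9 UMIs lies far from the rest, and no spot of the other sections holds more than 20 Cxcl10 or 6 Cxcl9 UMIs.

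Spots with Cxcl9 also held more Cxcl10 elsewhere. Spots with Cxcl9 had Cxcl10 at 35.2 CPM, against 14.6 CPM in those without it, in PAN_LS-FMD, a ratio of 2.41 (1.46 to 3.77). The ratio was 1.81 in PAN (1.41 to 2.30) and 2.37 in healthy_LS-FMD (1.41 to 3.74). In healthy it was 9.37 (8.21 to 10.7), and 5.83 (4.97 to 6.81) without the single spot. In healthy, spots with Cxcl9 also had more Ccl2 (4.73-fold, and 4.31-fold without that spot).

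Interferon-induced genes were found around both. The interferon response list had a UMI-weighted ratio around Cxcl10 of 2.41 in PAN_LS-FMD, 2.94 in PAN, 2.67 in healthy_LS-FMD and 5.41 in healthy, the last being 3.99 without the single spot. Mx2, an antiviral protein gene, was 1.59-fold higher in the Cxcl10 spots of PAN_LS-FMD, 1.72-fold in PAN and 2.11-fold in healthy. Isg15 was 2.64-fold higher in those of healthy_LS-FMD. Around Cxcl9 in healthy the interferon response ratio was 5.66, and 3.06 without that spot. The list of 8 genes, none at 0, summed to 79.6 CPM in PAN_LS-FMD, 175 CPM in PAN, 83.3 CPM in healthy_LS-FMD and 67.9 CPM in healthy.

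The region with the highest Cxcl10 was a medullary one in every section, at 23.5 CPM in PAN_LS-FMD, 51.3 CPM in PAN, 78.6 CPM in healthy_LS-FMD and 116 CPM in healthy. In PAN_LS-FMD its interval (17.5 to 30.8) overlapped those of cortical (19.9 CPM), blood-rich (19.8 CPM) and outer stripe (18.8 CPM) regions. In PAN, where it was also the region of the highest Cxcl12, its interval (43.5 to 60.2) overlapped that of an outer stripe region at 38.4 CPM. The healthy region was that of the single spot, and without that spot it was at 50.8 CPM (41.2 to 62.0). In PAN the lowest Cxcl10 region, at 9.49 CPM on 6 UMIs (3.48 to 20.7), was the smooth muscle region in which Ccl19 and Ccl21 were highest. Its interval overlapped those of other regions, such as a cortical one at 21.0 CPM (16.4 to 26.5). For Cxcl9 the same region was the highest of PAN, at 17.4 CPM on 11 UMIs (8.69 to 31.1), also with overlapping intervals. Without the 1 spot of most Cxcl9 UMIs it was at 8.09 CPM.

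Cxcl1, the neutrophil attractant, was sparse, with 33 UMIs (0.94 CPM) in PAN_LS-FMD, 85 UMIs (3.41 CPM) in PAN, 18 UMIs (0.71 CPM) in healthy_LS-FMD and 29 UMIs (0.50 CPM) in healthy. Only PAN had an interval apart from the rest. It was 6.89-fold higher in PAN than in healthy (4.47 to 10.9) and 3.61-fold lower in PAN_LS-FMD than in PAN (2.39 to 5.58). In PAN_LS-FMD it was 1.91-fold higher than in healthy (1.12 to 3.25), a call that was lost when sections were thinned to 1 depth (1.27-fold) and over cortical spots (2.28-fold, 0.92 to 5.96). Spots with Cxcl1 in PAN held more Ccl7 (2.99-fold), a monocyte attractant, and more Ccl2 (2.66-fold). The neutrophil list of 8 genes summed to 3.92 CPM in PAN_LS-FMD, 12.999 CPM in PAN, 5.25 CPM in healthy_LS-FMD and 6.86 CPM in healthy, with Mpo at 0 in both diet sections and Mmp8 at 0 in healthy_LS-FMD.

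Cxcl16, the membrane-anchored chemokine, had 3035 UMIs (86.8 CPM) in PAN_LS-FMD, 6960 UMIs (279 CPM) in PAN, 1646 UMIs (65.0 CPM) in healthy_LS-FMD and 6223 UMIs (106 CPM) in healthy. All 4 intervals were apart. It was 2.63-fold higher in PAN than in healthy (2.54 to 2.72) and 3.22-fold lower in PAN_LS-FMD than in PAN (3.08 to 3.36). In healthy_LS-FMD it was 1.64-fold lower than in healthy (1.55 to 1.73), and against that section the PAN fold was 4.30.

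Across the PAN regions Cxcl16 ran from 209 to 343 CPM. The lowest PAN region, at 209 CPM, was above the highest regions of the other sections, which were at 126 CPM in PAN_LS-FMD, 118 CPM in healthy_LS-FMD and 162 CPM in healthy. Among lists with at least 200 UMIs, the highest UMI-weighted ratio around it was 1.25, for the podocyte list in PAN_LS-FMD. The highest Cxcl16 region in healthy, 115 spots, was led by Havcr1, and the lowest regions of PAN_LS-FMD (52.4 CPM) and healthy (74.0 CPM) were labelled outer stripe.

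The receptors of these ligands were measured in part. Cxcr3 was at 3.92 CPM in PAN_LS-FMD, 19.5 CPM in PAN, 2.96 CPM in healthy_LS-FMD and 4.25 CPM in healthy, so that PAN was 4.596-fold above healthy (3.94 to 5.38). Cxcr4 was at 4.89, 24.8, 6.51 and 3.43 CPM in the same order, 7.21-fold higher in PAN than in healthy (6.14 to 8.50). Ackr3, which takes up Cxcl12, was at 38.7, 55.4, 68.0 and 32.7 CPM, highest in healthy_LS-FMD. Ccr7 and Cxcr5, the receptors of Ccl19, Ccl21 and Cxcl13, were listed at 0 in all 4 sections. Ccr2 had at most 1 UMI a section, Cxcr2 at most 2, Ackr4 at most 4 and Cxcr6 7 in PAN and at most 1 elsewhere.

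Of 23 listed chemokine receptors, 10 were measured for PAN against healthy, and 8 were higher and 1 lower (median log2 fold 2.39), beside 44.3% of all measured genes higher and 9.85% lower. Xcr1, a receptor of cross-presenting dendritic cells, was 10.2-fold higher, Ccr1 9.89-fold and Ccr3 8.55-fold. For PAN_LS-FMD against PAN 1 was higher and 8 lower (median -2.24), beside 9.67% of all measured genes higher and 35.5% lower, with Ccr3 16.0-fold lower and Ccr1 10.2-fold lower. Ccr10, a skin- and mucosa-homing receptor, ran against the others, at 9.47 CPM in PAN_LS-FMD, 4.98 CPM in PAN, 5.65 CPM in healthy_LS-FMD and 14.1 CPM in healthy; it was named after its values were seen.

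Among 25 other ligand genes, 19 were measured for PAN against healthy, and 13 were higher and 2 lower (median log2 fold 1.73), beside the all-gene shares of 44.3% higher and 9.85% lower. Cxcl6, a neutrophil attractant, had 0 UMIs in PAN_LS-FMD, 85 in PAN, 2 in healthy_LS-FMD and 3 in healthy, a ratio of PAN to healthy of 66.6 (22.0 to 329). Against the floor of 3 counts in the section, it was at least 39.7-fold lower in PAN_LS-FMD than in PAN. Ccl12, a monocyte attractant, was at 3.81 CPM in PAN and 0.34 CPM in healthy, and Cxcl14 was at 40.0 CPM in PAN and 7.55 CPM in healthy. For PAN_LS-FMD against PAN 1 of the 19 was higher and 14 lower (median -1.49), beside 9.67% and 35.5% of all genes, with Ccl7 8.02-fold lower.

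All 13 measured genes of a list of NF-kB members and cytokine genes were higher in PAN than in healthy (median log2 fold 2.23), as were all 11 of a list of interferon gamma pathway genes (median 1.94), where 44.3% of all measured genes were higher. Nfkbiz, an NF-kB cofactor, was 9.89-fold higher, Il1b 7.82-fold and the adhesion molecule Icam1 5.09-fold. Ciita, which switches on MHC class II genes, was 8.52-fold higher, Irf8 6.04-fold and Irf1 4.599-fold. In PAN_LS-FMD against PAN 12 of 13 and 11 of 11 were lower (medians -1.77 and -1.60), where 35.5% of all measured genes were, with Birc3 7.76-fold lower and Ciita 6.97-fold lower. Ifng itself had 1 UMI in PAN and 0 in PAN_LS-FMD and healthy.

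The list of lymphoid tissue organising genes held 9 measured genes, all 9 higher in PAN than in healthy (median log2 fold 2.35), where 44.3% of all measured genes were. The follicle and B cell receptor gene Cr2 had 0 UMIs in PAN_LS-FMD, 200 in PAN, 3 in healthy_LS-FMD and 9 in healthy, 52.2-fold higher in PAN than in healthy (27.0 to 116). It was at least 93.5-fold lower in PAN_LS-FMD than in PAN, against the floor. Lta, the lymphotoxin that induces Cxcl13 in mouse lymphoid tissue, was 12.2-fold higher in PAN than in healthy (6.32 to 25.8) and 16.0-fold lower in PAN_LS-FMD than in PAN (6.47 to 51.1). The survival factor Tnfsf13b was 6.37-fold higher in PAN than in healthy. For PAN_LS-FMD against PAN 8 of the 9 were lower (median -2.10), where 35.5% of all measured genes were. Ltb, Madcam1 and Tnfsf11 were listed at 0 in PAN_LS-FMD, PAN and healthy.

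Enzymes and scavengers that act on chemokines moved both ways. Of 9 measured, 5 were higher and 2 lower in PAN than in healthy, and 2 were higher and 6 lower in PAN_LS-FMD than in PAN. Among all measured genes 44.3% were higher and 9.85% lower in PAN than in healthy, and 9.67% higher and 35.5% lower in PAN_LS-FMD than in PAN, so the count higher in PAN was near the all-gene share. Dpp4, a brush border peptidase that trims Cxcl10 and Cxcl12, was at 602 CPM in PAN_LS-FMD, 301 CPM in PAN, 615 CPM in healthy_LS-FMD and 612 CPM in healthy. Mmp9 was at 8.49, 1.56, 8.01 and 9.70 CPM in the same order, and was among the leading genes of podocyte regions. Mmp2 was at 29.3, 239, 26.3 and 21.6 CPM in that order. Adam10, which sheds Cxcl16 in human and mouse cells, was at 0.69, 1.32, 1.07 and 1.08 CPM.

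The macrophage list, like each member, was highest in PAN. Its 12 genes, none at 0, summed to 946 CPM in PAN_LS-FMD, 3125 CPM in PAN, 612 CPM in healthy_LS-FMD and 719 CPM in healthy, and all 12 were higher in PAN than in healthy (44.3% of all measured genes) and lower in PAN_LS-FMD than in PAN (35.5% of all measured genes). In PAN_LS-FMD the macrophage sum was 1.32-fold that of healthy, with 5 of 12 genes called higher and 0 lower (6.8% and 4.53% of all measured genes). Among the chemokines 3 were called higher and 2 lower in that comparison. The plasma cell list summed to 54.6, 849, 71.2 and 47.2 CPM in that order, with Tnfrsf17 at 0 in PAN_LS-FMD and Jchain at 0 in healthy_LS-FMD. The injured tubule list summed to 1075, 21621, 2409 and 1089 CPM in that order. The part of these lists in the chemokine levels was not tested.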

How the data were processed

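Spatial RNA was measured in 4 kidney sections, 1 a group. The authors deposited whole-number UMI counts per gene and spot with no normalisation, made with Space Ranger 2.0.1 for the healthy section and 1.2.1 for the others, per the file headers. The aligner settings, genome build and annotation are not given in the sources used here, and images and spot coordinates were not used here. Spots under 500 UMIs were left out. Doublets were not called, as spots hold several cells.

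Counts were summed over spots and divided by the section total. Levels have exact Poisson intervals, shares exact Clopper-Pearson intervals and folds the exact conditional interval of a ratio of Poisson counts, all at 95% and for counting error only. A gene was measured from 20 UMIs over both sections and called from 1.5-fold with an interval that excludes 1. These rules were tested on simulated data. To compare shares, spots were thinned to 4000 UMIs. For the regions, spots were scaled to 10000, log-transformed and clustered by Leiden (scanpy 1.11.5, resolution 1, 2000 variable genes without the members, 30 components, 15 neighbours), and regions were labelled by marker lists. Fold and interval work used scipy 1.17.1 and numpy 2.4.6. Promoters are RefSeq sequences of build GRCr8, matched by symbol, and their coordinates belong to that build, not to the deposited files.

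The members, gene lists and marker lists were chosen with earlier results of these data known. Named genes are all members, their receptors, up to 4 genes of each pathway list and comparison by size of fold among those with at least 50 UMIs, up to 5 genes with the highest ratio in the spots that hold a member among those with at least 200 UMIs, and marker genes where a list is described; a few genes that this rule names are not reported here. Cd3e in the Ccl5 spots, Cxcl11, Irf1, Isg15 and Gbp2 in the single spot, and Ccl4 and Gzmk were named after their values were seen. Alternatives were cortical spots, median-of-ratios scaling, other filters and thresholds, sections thinned to 1 depth, leaving out the 10 spots of most UMIs (and, chosen after seeing the data, the 1 spot of most UMIs) and the other uninjected section as the control.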

Additional observations from a re-analysis of the deposited data

Results flagged for a closer look

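Ccl21 is listed here because the diet went with opposite directions in the injected and the uninjected kidneys. In PAN_LS-FMD it was 0.0401-fold the level in PAN (51.3 CPM against 1278 CPM), whereas in healthy_LS-FMD it was 2.20-fold the level in healthy (72.8 CPM against 33.2 CPM). The difference between these effects was not tested, since each rests on 1 section a group, and the sections differ in the number of diet cycles (6 and 1).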

How the results depend on the processing

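No paired analysis was possible because each group had 1 section. For PAN against healthy 7 to 10 members were called higher and 0 lower under each alternative recomputed for these counts, with 7 under median-of-ratios scaling and 8 under a 2-fold threshold. For PAN_LS-FMD against PAN 0 were higher and 8 or 9 lower. The counts of the other comparisons moved more, and the cause was not tested. For PAN_LS-FMD against healthy, the 3 members called higher became 1 with a 2-fold threshold and 1 with healthy_LS-FMD as the control, and 2 over cortical spots, with median-of-ratios scaling and with sections thinned to the lowest total, and the 2 called lower became 1 over cortical spots, 4 with median-of-ratios scaling, 1 with a 2-fold threshold, 1 with sections thinned to the lowest total and 0 with healthy_LS-FMD as the control. For healthy_LS-FMD against healthy, the 2 called lower became 4 over cortical spots, 3 with median-of-ratios scaling and 1 with a 2-fold threshold. Ccl21 in PAN_LS-FMD changed side with the control: it was 1.54-fold the healthy level but 0.70-fold that of healthy_LS-FMD. The list with the highest CPM ratio of spots that hold a gene over the others fell below 1 when spots were thinned to 4000 UMIs for the red blood cell list around Ccl2 in PAN (0.93) and around Cxcl16 in PAN (0.98), the plasma cell list around Ccl19 in PAN_LS-FMD (0.83), the neutrophil list around Cxcl9 in PAN (0.83) and in healthy (0), and the B cell list around Cxcl12 in PAN_LS-FMD (0.99), and with UMI weights for the red blood cell list around Cxcl16 in PAN_LS-FMD (0.996) and in PAN (0.97). Besides these reversals, 21 of the leading list ratios moved outside their counting interval with thinning and 8 stayed within it. With UMI weights 28 moved outside it and 9 stayed within. Depth limits Cxcl1, Cxcl9 and Cxcl13 most, with 18 to 578 UMIs a section.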
